A study of Mus musculus with 8 samples.

Results

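The genes described here are 9 lysophospholipid acyltransferases of the mouse, Lpcat1, Lpcat2, Lpcat3, Lpcat4, Lpgat1, Lclat1, Mboat1, Mboat2 and Mboat7. They were chosen as the gene deleted in these mice and other enzymes that attach a fatty acid to a phospholipid with one acyl chain missing, and the rule that names them uses no measured value, although results of these data were known when they were chosen. They are 9 of the 22911 genes named on the array, and 15 of its 56605 probes were assigned to them through the RefSeq accession that the scanner output gives for each probe. Photoreceptor cells were taken from retinas at postnatal day 8 and hybridised to single-color microarrays, of which 4 are labelled Lpcat1 HZ (heterozygous) and 4 Lpcat1 KO. The question of the comparison was what underlies the death of photoreceptors in the KO mice at the age when it begins.

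Both groups had the same age, and their strain is labelled C57BL/6. According to the methods, the KO line was made on a C57BL6/N background and crossed to C57BL6/J, and mice without the homozygous rd8 mutation of Crb1 were used. The deletion was global rather than restricted to photoreceptors. The HZ mice carried one deleted copy of Lpcat1, so the comparison is of no intact copy with one, and wildtype mice were not part of it. Cells were dissociated with trypsin and collected magnetically with an antibody against CD73, a surface enzyme of rod precursors encoded by Nt5e. Nothing in the labels says whether each array came from 1 mouse or from pooled mice. The p-values set each difference against the spread between samples of a group, and this spread may be technical.

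Phospholipids are built with one set of fatty acids and then remodeled in what is called the Lands cycle. A phospholipase removes one fatty acid, leaving a lysophospholipid, and a lysophospholipid acyltransferase adds another from acyl-CoA. The enzymes differ in the head group and in the fatty acid they prefer, and together they set how saturated a membrane is. LPCAT1 uses saturated acyl-CoA to make saturated phosphatidylcholine (PC), the main lipid of lung surfactant. Membranes of photoreceptor outer segments are known for phospholipids with polyunsaturated fatty acids and also hold saturated PC. Lpcat1, Lpcat2, Lpcat4, Lpgat1 and Lclat1 belong to the AGPAT family of acyltransferases. Lpcat3, Mboat1, Mboat2 and Mboat7 belong to the separate family of membrane-bound O-acyltransferases.

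The rod identity of the samples was checked with 10 rod markers, including Nrl, Crx, Rcvrn and Nt5e. All 10 were well above background on all 8 arrays, and their summed level, in multiples of each array's 75th percentile, was 760 to 926 on the HZ and 761 to 851 on the KO arrays. The 75th percentile itself lay between 882 and 1024 intensity units, and each array had 59.5% to 64.6% of its probes well above background. The software called 458 spots non-uniform on HZ replicate 4 and 2 to 25 on each of the others. The KO arrays lay in the first row of the slide and the HZ arrays in the second, so genotype and row cannot be told apart. Markers of other cells were also measured. Of the markers of the retinal pigment epithelium (RPE), 8 of 8 were lower in KO (median difference -1.84 on the log2 scale, summed level 5.47 to 13.1 in HZ and 1.36 to 3.97 in KO). Of the microglial markers, 7 of 7 were higher (median 0.76, summed level 1.52 to 3.26 in HZ and 2.20 to 4.23 in KO). The bulk values cannot separate fewer cells of a type from less RNA per cell.

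Levels are given as the log2 intensity of a probe minus the 75th percentile of its array, so that 0 is the level of that percentile and -1 is one doubling below it. Probes differ in how well they bind, so a difference in level between probes is not read as a difference in RNA amount. Brighter and dimmer refer to probe signal only, and summed levels were compared only between arrays for the same list. Differences are KO minus HZ on this scale with 95% intervals from limma, a linear model. It was fitted over the 34303 probes with a signal well above background on 4 or more arrays, and adjusted p is the Benjamini-Hochberg value over these probes. Of the 15 probes, 14 met this filter, at least 1 for each of the 9 genes, and the same 14 were well above background on all 8 arrays. Each of the 15 had 1 spot per array, and 0 of these spots were saturated or marked as outliers.

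Lpcat1, the deleted gene, did not separate the groups on its probe (A_55_P2131707). The level was -0.81, -0.95, -1.02 and -1.17 on HZ replicates 1 to 4, and -0.97, -1.16, -1.11 and -0.85 on KO replicates 1 to 4. The ranges overlapped, and the lowest HZ array and the lowest KO array lay at nearly the same level. The means were -0.99 ± 0.15 (SD, n = 4) in HZ and -1.02 ± 0.14 (SD, n = 4) in KO. The difference was -0.04 (95% interval -0.29 to 0.22, adjusted p = 0.931 by limma), which is a KO level of 0.974 times the HZ level with an interval of 0.816 to 1.16. By replicate number, KO was lower than HZ in 3 pairs and higher by 0.31 in the pair with number 4.

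All 8 values of Lpcat1 were well above background, at 393 to 556 intensity units. The lowest signal well above background on an array was 15.4 to 25.7 units. Where this probe lies relative to the deleted part of the gene was not analysed here. A probe outside that part does not test the genotype, so the groups are called by their labels throughout. Whether the level of this probe measures intact Lpcat1 mRNA is not known here.

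**Figure D1:**
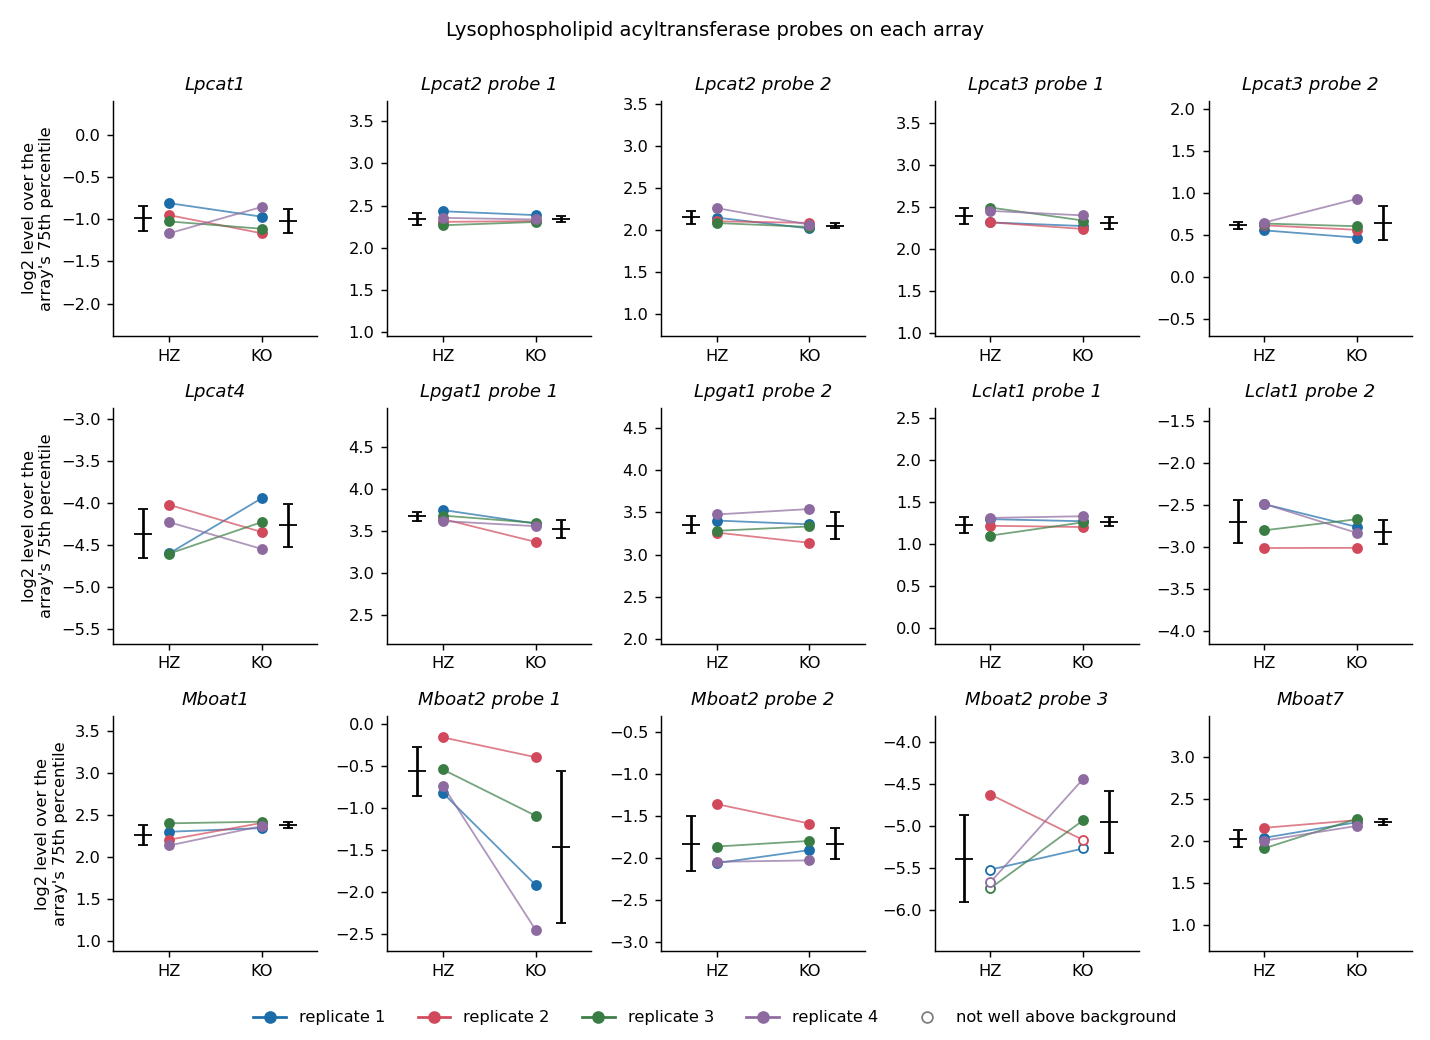
Log2 level of each of the 15 probes on the 8 arrays, over the 75th percentile of the array (vertical axis, every panel spans the same number of log2 units), for HZ and KO with lines joining the same replicate number and black bars giving the mean ± SD of 4 arrays. Lpcat1 crosses between the groups, Mboat2 probe 1 is lower on the KO array of every pair, and Mboat7 has 4 KO arrays (2.18 to 2.26) above 4 HZ arrays (1.91 to 2.16); open circles are spots that were not well above background.

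Among the other PC acyltransferases, no difference between the groups passed the test. Lpcat2, which also makes platelet-activating factor in inflammatory cells, has a pair of probes. On the brighter one (A_55_P2809820), HZ was 2.43, 2.31, 2.27 and 2.35, and KO was 2.39, 2.32, 2.30 and 2.33. The KO arrays lay inside the HZ range, and the difference was -0.0042 (95% interval -0.18 to 0.17). The second probe (A_51_P169061) gave 2.15, 2.10, 2.08 and 2.26 in HZ and 2.02, 2.08, 2.03 and 2.06 in KO. KO was lower here in 4 of 4 pairs, yet the groups overlapped and the difference of -0.10 (95% interval -0.27 to 0.08) had an adjusted p of 0.740 by limma. Microglial markers, which stand for cells that can use Lpcat2, were higher in KO while neither Lpcat2 probe was, and a part of such cells in the Lpcat2 signal was not tested.

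Lpcat3 adds polyunsaturated fatty acids to lysophosphatidylcholine. Its brighter probe (A_55_P2786733) read 2.31, 2.31, 2.49 and 2.45 in HZ and 2.27, 2.24, 2.34 and 2.40 in KO. KO was again lower in 4 of 4 pairs, with overlapping groups and a difference of -0.08 (95% interval -0.28 to 0.11, adjusted p = 0.787 by limma). On the other probe (A_51_P145415), the HZ arrays lay within 0.56 to 0.65, and the KO arrays read 0.47, 0.56, 0.60 and 0.93. KO replicate 4 was thus above all HZ arrays, and the difference was 0.03 (95% interval -0.23 to 0.28). In an alternative that took each spot's median signal, not its processed intensity, with normexp background correction, the difference of this probe was -0.28. Signal and background correction changed together there, so their parts cannot be told apart.

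Lpcat4 acts on lysophosphatidylethanolamine as well as on lysophosphatidylcholine. Its probe (A_66_P102766) was the dimmest of those tested, at 37.9 to 63.2 intensity units, although it passed the background mark on every array. HZ was -4.60, -4.02, -4.60 and -4.22, and KO was -3.94, -4.34, -4.22 and -4.54. The arrays of both groups covered almost the same range. The difference of 0.10 had an interval of -0.31 to 0.51, which leaves both directions possible.

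Lpgat1, an acyltransferase for lysophosphatidylglycerol and other lysophospholipids, has a pair of probes with different accessions. On the first (A_51_P148069), HZ was 3.75, 3.64, 3.68 and 3.62, and KO was 3.59, 3.37, 3.598 and 3.56. Every KO array lay below every HZ array, and KO was lower in 4 of 4 pairs. The difference was -0.15 (SE 0.08, 95% interval -0.34 to 0.05), with an adjusted p of 0.687 by limma. On the second probe (A_51_P453351), HZ was 3.40, 3.26, 3.28 and 3.48 and KO was 3.36, 3.14, 3.33 and 3.54. KO was lower in 2 pairs and higher in 2, and the difference was -0.01 (95% interval -0.26 to 0.23), so the separation on the first probe was not seen on the second.

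Lclat1 acylates lysocardiolipin and lysophosphatidylinositol. The level of its brighter probe (A_52_P299358) ranged from 1.098 to 1.31 in HZ, the KO arrays lay within or just above that range with a highest value of 1.33, and the difference was 0.03 (95% interval -0.15 to 0.22). Its dimmer probe (A_52_P606287) ranged from -3.01 to -2.49 in HZ and from -3.01 to -2.67 in KO, a difference of -0.12 (95% interval -0.45 to 0.21). Both probes had overlapping groups and 2 pairs in each direction.

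In the second family, Mboat7 gave the smallest adjusted p of the 14 probes. MBOAT7 places arachidonic acid on lysophosphatidylinositol. Its probe (A_55_P2933778) read 2.04, 2.16, 1.91 and 2.00 in HZ and 2.22, 2.25, 2.26 and 2.18 in KO. Each KO array was above each HZ array, and the KO arrays lay close together (2.03 ± 0.10 in HZ and 2.23 ± 0.04 in KO, SD, n = 4). The difference was 0.20 (SE 0.08, 95% interval 0.01 to 0.39), or 1.15 times the HZ level. The adjusted p was 0.592 by limma, so Mboat7 did not pass the threshold of 0.05, and the unadjusted p of the same fit was 0.0385. The unadjusted p was above 0.05 in 6 of the 8 fits that left out 1 array (HZ replicate 1, 3 or 4, or KO replicate 1, 2 or 3), where the difference was 0.16 to 0.20, and below it without HZ replicate 2 (0.24) or KO replicate 4 (0.22).

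Mboat1, which acylates lysophosphatidylserine and lysophosphatidylethanolamine, was also higher in KO in 4 of 4 pairs. HZ was 2.30, 2.20, 2.40 and 2.13 and KO was 2.34, 2.40, 2.42 and 2.37 (A_51_P349495). HZ replicate 3 lay among the KO arrays, and the difference of 0.12 (95% interval -0.07 to 0.32) had an adjusted p of 0.717 by limma.

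Mboat2 had the largest difference of the 14 probes and the largest spread. MBOAT2 acylates lysophosphatidylcholine and lysophosphatidylethanolamine, mostly with oleic acid. On its brightest probe (A_55_P2039250), HZ was -0.82, -0.16, -0.54 and -0.73, and KO was -1.92, -0.40, -1.09 and -2.45. The intensity ran from 170 to 916 units. KO replicate 2 lay above 3 of the HZ arrays, while KO replicates 1, 3 and 4 lay below all of them. The means were -0.57 ± 0.29 (SD, n = 4) in HZ and -1.46 ± 0.90 (SD, n = 4) in KO. The difference was -0.90 (SE 0.41, 95% interval -1.85 to 0.05), a KO level of 0.536 times the HZ level, with an adjusted p of 0.624 by limma. KO was lower in 4 of 4 pairs, with differences of -1.09, -0.24, -0.55 and -1.72 for numbers 1 to 4. Without KO replicate 4 the difference was -0.57, and without KO replicate 2 it was -1.25.

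The other Mboat2 probes did not share this difference. Probe 2 (A_55_P2405784), which is listed under a predicted transcript, read -2.06, -1.36, -1.87 and -2.05 in HZ and -1.91, -1.59, -1.80 and -2.03 in KO. Its KO range lay inside its HZ range, with a difference of 0.0019 (95% interval -0.40 to 0.41). Probe 3 (A_55_P2740743) was well above background on 1 HZ and 2 KO arrays and was not tested. Its level ran from -5.74 to -4.63 in HZ and from -5.27 to -4.44 in KO. Over the 8 arrays, probes 1 and 2 correlated with r = 0.57, probes 1 and 3 with r = -0.38, and probes 2 and 3 with r = 0.41. These are descriptions over arrays that share the genotype and slide layout.

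**Figure D2:**
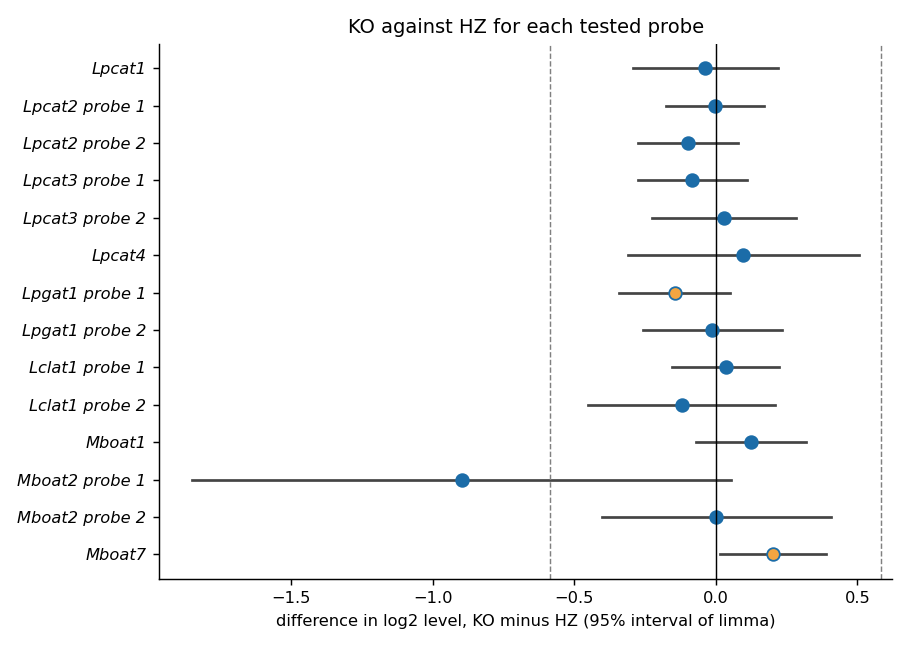
Difference in log2 level, KO minus HZ, of the 14 tested probes (horizontal axis) with the 95% interval of limma, n = 4 arrays per group; orange points mark the 2 probes whose KO and HZ arrays did not overlap, and dashed lines mark a change of 1.5-fold. All intervals but that of Mboat2 probe 1 lie within the dashed lines, and that of Mboat7 (0.01 to 0.39) does not cross 0.

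Counted over the 14 tested probes, 8 were lower and 6 higher in KO, and their median difference was -0.0084, against 0.0023 over all tested probes. At an adjusted p under 0.05 the count was 0, as it was over all probes (0% of 34303). At an unadjusted p under 0.05 it was 1 of 14, Mboat7, where 8.17% of all tested probes passed. The KO and HZ arrays did not overlap for 2 of 14 probes, Lpgat1 probe 1 and Mboat7, against 6.33% of all. A change of more than 1.2-fold in either direction was found for 1 of 14, Mboat2 probe 1, against 22.8% of all. The share of the 14 probes was below that of all probes at the fold threshold and near it by p. Their within-group SD was also lower (median 0.11, against 0.21 for all probes). For groups without overlap the count was 2 in all, and it ran from 1 to 4 over the alternatives. Those that left out 1 array could not lower it. With so few probes, no departure from the background share is read from any of these counts. With normexp background correction of the median spot signal the sign turned for Lpcat1, Lpcat2 probe 2, Lpcat3 probe 2, Lpcat4, Lpgat1 probe 2, both Lclat1 probes and Mboat2 probe 2. All of these were differences that had not passed the test. The smallest adjusted p was 0.592 among the 14 and 0.158 among all probes.

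Under the main processing, the intervals bound the change in the signal of each probe. For 13 of 14 probes the whole 95% interval lay within a 1.5-fold change in either direction, with Mboat2 probe 1 as the exception. From the difference to either end of its interval was a median of 0.22 (0.17 to 0.95) for the 14 probes and 0.34 for all. These intervals do not cover a change of processing. Lpcat3 probe 2, with an interval of -0.23 to 0.28, had a difference of -0.28 with normexp correction of the median spot signal. The within-group SD had a median of 0.11 for the 14 probes, from 0.06 for Lpcat2 probe 1 to 0.67 for Mboat2 probe 1, and 0.21 for all probes. For 6 of 14 probes all 4 pairs differed in the same direction, as they did for 25.4% of the probes with values in every pair: Lpcat2 probe 2, Lpcat3 probe 1, Lpgat1 probe 1 and Mboat2 probe 1 were lower, and Mboat1 and Mboat7 were higher.

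The replicate numbers of the labels, which are also the columns on the slide, pair the arrays. Samples with the same number deviated together from their group means (r = 0.17 to 0.34 for 4 pairs, against -0.34 to 0.12 for the 12 other combinations). With the number as a block, 1 of 14 probes had an unadjusted p under 0.05, where 11.9% of all did. The blocked fit named a different probe, since Mboat2 probe 1 had an unadjusted p of 0.0182 and Mboat7 one of 0.0530. Their adjusted p were 0.369 and 0.425 by limma. The SE of Mboat2 probe 1 was 0.26 with the block and 0.41 without it.

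Replicate number took a larger share of the variation than the genotype label for all probes but Lpcat2 probe 2, Lpgat1 probe 1, Mboat1 and Mboat7. Of the sum of squares over the 8 arrays, a median of 55.8% lay between replicate numbers for the 14 probes (14.7% to 90.4%) and 8.15% between the genotype labels (0.0016% to 69.9%). Over all tested probes these medians were 52.6% and 11.6%, and the numbers and labels hold 42.9% and 14.3% of the degrees of freedom. Lpcat2 probe 1 (89.3%), Lpgat1 probe 2 (89.5%) and Mboat2 probe 2 (90.4%) had the most between replicate numbers. Mboat7 was the reverse, with 69.9% between the labels and 14.7% between the numbers. Lpcat1 had 31.4% between numbers, 2.15% between labels and 66.4% in neither.

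**Figure D3:**
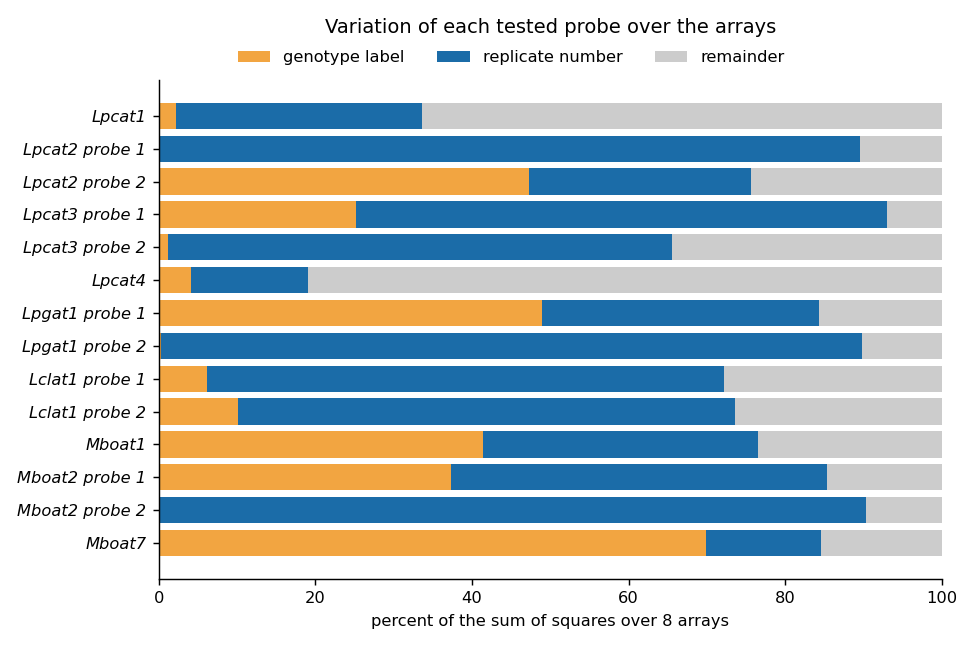
Share of the sum of squares over 8 arrays (horizontal axis, percent) that lay between the genotype labels, between the replicate numbers, and in the remainder, for each of the 14 tested probes. Mboat7 has the largest share by label (69.9%), and Lpcat1 and Lpcat4 have most of their variation in the remainder (66.4% and 80.9%).

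In limma's F test of the replicate number, 1 of 14 probes had an unadjusted p under 0.05, where 13.8% of all probes did, and the count after adjustment was 0 (0% of all). The probe was Mboat2 probe 2 (F = 7.41, unadjusted p = 0.0273, adjusted p = 0.323 by limma). Mboat2 probe 1 had F = 5.10, with an adjusted p of 0.369 by limma. Both probes were highest on replicate 2 of HZ and on replicate 2 of KO, and lowest on HZ replicate 1 and KO replicate 4.

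The marker lists of other cells were set beside the Mboat2 probes array by array. The 6 markers of Muller glia, the radial glia of the retina, were summarised as their mean deviation from the 8-array mean. This score was -0.37, 0.56, 0.14 and -0.07 in HZ and -0.19, 0.43, -0.20 and -0.31 in KO. It too was highest on replicate 2 of both groups and lowest on HZ replicate 1 and KO replicate 4, an order that was not particular to glia. The score of the 6 bipolar cell markers (-0.19, 0.57, 0.21 and 0.07 in HZ and -0.09, 0.02, -0.22 and -0.37 in KO) had its highest and lowest arrays at the same numbers, and so had that of the 14 tested genes of acyl-CoA supply. Between the groups, 4 of the 6 Muller glia markers were lower and 2 higher in KO (median -0.08), and 0 of the 6 were at background. Their summed level was 13.1 to 20.1 in HZ and 11.2 to 22.1 in KO. The same score for the 8 RPE markers was 1.43, 0.26, 0.86 and 0.74 in HZ and -0.14, -0.71, -0.55 and -1.87 in KO. It was lowest on KO replicate 4, as was Mboat2 probe 1, but replicate 2 was its lowest HZ array and its second lowest KO array. The part of these cells in the Mboat2 values was not tested.

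**Figure D4:**
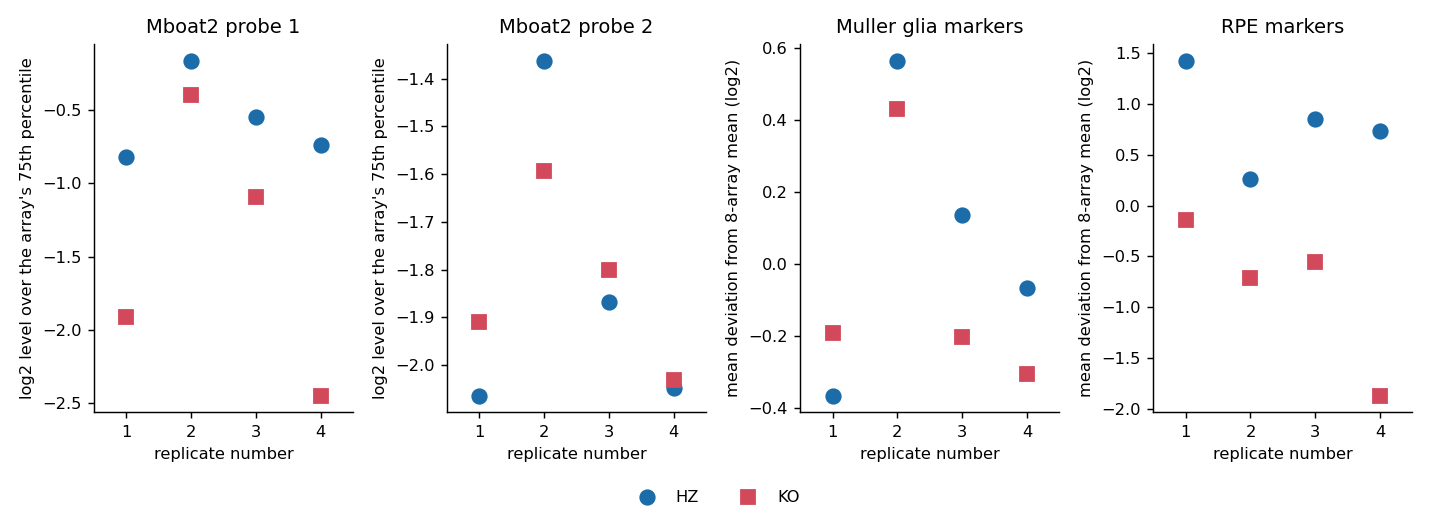
Log2 level over the 75th percentile of the array for Mboat2 probes 1 and 2, and the mean log2 deviation from the 8-array mean for 6 Muller glia and 8 RPE markers (vertical axes), by replicate number (horizontal axis), with circles for HZ and squares for KO. Both Mboat2 probes and the Muller glia score are highest at replicate 2 in each group, while the RPE score is lower in KO at every number.

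An unadjusted p under 0.05 was reached by 7 of the 8 RPE, 3 of the 7 microglial and 0 of the 6 Muller glia markers. Over all tested probes the share was 8.17%. The 5 cone markers were all higher in KO (median 0.17) and the 6 bipolar cell markers all lower (median -0.36), with an unadjusted p under 0.05 for 0 of either. Both tested red blood cell genes were higher (median 1.61) with an unadjusted p under 0.05, and Alas2 was at background on every array. Of 3 tested vascular genes, 2 were lower and 1 higher, with Cdh5 at background. Of 7 markers of amacrine, horizontal and ganglion cells, 2 were tested, and Gad1, Pou4f2 and Rbpms were at background on every array. The adjusted p was above 0.05 by limma for every marker tested.

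Genes outside the family were ranked by how closely their level followed the Lpcat1 probe over the 8 arrays. Among 21762 probes, 21 had r above 0.9 with Lpcat1 and 11 had r under -0.9. How many of so many probes would reach this by chance over 8 arrays was not tested. Among the closest were Cdr2, an antigen of cerebellar degeneration (r = 0.958), and Atp8a2, a phospholipid flippase of photoreceptors (r = 0.953). Cdr2 was 0.88, 0.44, 0.29 and 0.09 in HZ and 0.43, -0.15, 0.07 and 0.54 in KO. As for Lpcat1, its highest array was HZ replicate 1 and KO replicate 4 was the highest of the KO arrays. A second Atp8a2 probe had r = -0.25, so this likeness was that of 1 probe. The ranking describes 8 arrays that share a slide and, by pairs, a replicate number.

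The other steps of the pathway were followed with 4 lists. None of their genes passed an adjusted p of 0.05. The first holds 11 further glycerolipid acyltransferases, which make lysophosphatidic and phosphatidic acid or remodel cardiolipin, and 9 were tested (Gpat2 and Lpcat2b were not). Of these, 7 were lower and 2 higher in KO, with a median of -0.06, 0 at an unadjusted p under 0.05 and 0 without overlap. The largest differences were those of Agpat4 (-0.49, SE 0.39, adjusted p = 0.746 by limma) and Agpat2 (0.23, SE 0.17, adjusted p = 0.733 by limma). Agpat4, which makes phosphatidic acid, ranged from -3.36 to -1.49 in HZ and from -3.42 to -2.44 in KO. Its highest array in each group was replicate 2, as for Mboat2 probes 1 and 2.

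The second list holds the opposite step, 20 phospholipases and lysophospholipases, of which 16 were tested. Their median difference was 0.01, with 7 lower and 9 higher. The unadjusted p was under 0.05 for 3 of 16, where 8.17% of all tested probes passed, and the groups did not overlap for 4 of 16 (Enpp2, Pla2g6, Pla2g15 and Pnpla7), against 6.33% of all. Enpp2 encodes autotaxin, a secreted enzyme that turns lysophosphatidylcholine into lysophosphatidic acid. It was -0.67, -1.39, -1.25 and -0.92 in HZ and -2.53, -2.31, -2.67 and -3.56 in KO. The KO arrays were all lower, with a difference of -1.71 (SE 0.28, adjusted p = 0.287 by limma). The summed level of the RPE markers was lower on the same arrays, and its part in the Enpp2 difference was not tested.

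Pnpla8, a mitochondrial phospholipase, had a difference of -0.41 (SE 0.43), with KO replicate 4 at -0.45 and all other arrays between 1.25 and 1.61. Its second probe gave 0.08. Chosen after their values were seen, as the other genes under an unadjusted p of 0.05, were Pnpla7, a lysophospholipase, and Plaat3, a phospholipase A. Pnpla7 was -0.15, -0.18, -0.05 and -0.03 in HZ and 0.14, 0.12, 0.36 and 0.17 in KO, a difference of 0.30 (SE 0.09). Plaat3 differed by -0.27 (SE 0.12), with overlapping groups.

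Acyl-CoA is the second substrate of the family, and 14 of 15 genes for its supply were tested (Scd1 was not). Of these, 8 were lower and 6 higher, with a median of -0.08. Fasn, the synthase of palmitate, was 4.79, 5.25, 5.08 and 4.76 in HZ and 5.50, 5.63, 5.57 and 5.51 in KO. Every KO array was above every HZ array, with a difference of 0.58 (SE 0.12, 95% interval 0.30 to 0.87, adjusted p = 0.362 by limma). Acsl3, which activates long-chain fatty acids, was 0.45, 0.88, 0.60 and -0.34 in HZ and -0.20, -0.22, -0.21 and -0.68 in KO. Its groups overlapped through HZ replicate 4, and the difference was -0.73 (SE 0.25, adjusted p = 0.533 by limma) on this probe and -0.23 (SE 0.17) on a second one. Fasn and Acsl3 were the 2 of 14 genes at an unadjusted p under 0.05 (8.17% of all tested probes), and Fasn and Slc27a1 the 2 of 14 without overlap (6.33% of all).

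With the replicate number as a block, 3 of the 14 genes of acyl-CoA supply had an unadjusted p under 0.05, where 11.9% of all tested probes did. The gene added, chosen after its values were seen, was Scd2, a desaturase of saturated acyl-CoA. It was 2.74, 3.76, 3.05 and 2.80 in HZ and 2.31, 3.02, 2.59 and 2.34 in KO. The groups overlapped, yet KO was lower at each of the 4 numbers, with a difference of -0.52 and an unadjusted p of 0.0734 without the block and 0.0020 with it. Its adjusted p was 0.639 without the block by limma, and the smallest blocked adjusted p of the list was 0.308. Under the block the count was 2 of 16 for the phospholipases and 0 for the other acyltransferases and for PC synthesis.

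The last list, 7 genes of PC synthesis from choline or by methylation, was higher in KO for 7 of 7 tested genes, from 0.0024 to 0.17, with a median of 0.10. None reached an unadjusted p of 0.05, and the groups overlapped for every gene. Pcyt1a, the rate-limiting enzyme of the choline route, differed by 0.17 (SE 0.15, adjusted p = 0.758 by limma) and Chka, a choline kinase, by 0.15 (SE 0.10, adjusted p = 0.708 by limma).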

How the data were processed

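RNA of photoreceptor cells was hybridised to SurePrint G3 mouse microarrays, 4 per genotype. The authors scanned them with Agilent Feature Extraction (version 10.7.1.1 in the submitters' processing notes) and deposited each spot's background-subtracted intensity with other marks for background, saturation and outlier spots. Their processed table, also deposited, holds log2 values shifted to the 75 percentile and centred on each probe's median, and served as an alternative. From the intensities, the log2 level over the 75th percentile of the array (59305 spots, controls left out) was computed. RefSeq accessions gave the gene of 32994 of 56605 probes through the RefSeq gene table of assembly GRCm38.p6 (no coordinates were used), and a gene of a list was taken by its brightest tested probe. Tests used limma 3.58.1 in R 4.3.3 (lmFit, eBayes, two-sided), the data.table package (1.17.8) and matplotlib 3.10.9, and were tested on simulated data. The members and lists were chosen with earlier results of these data known. Named are the 9 genes, the 2 genes per list with the largest difference and the 3 most like Lpcat1, except that some genes the rule takes in are not reported here. The number of arrays limits the precision. Alternatives were other background (normexp on the median spot signal in place of the processed intensity), scaling, filter and variance settings. Further alternatives were the methods' t-test, the block, the authors' values, the mean of a gene's probes and each array left out.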

Additional observations from a re-analysis of the deposited data

Results flagged for a closer look

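Of 56 groups of 4 arrays checked for a value far from the rest, 1 stood out, where chance would give about 2.8. The score of the Muller glia markers was 0.43 on KO replicate 2, and -0.19 to -0.31 on the other KO arrays.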

How the results depend on the processing

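Lpcat3 probe 1, Lpgat1 probe 1, Mboat1, Mboat2 probe 1 and Mboat7 kept their direction under every alternative, and 0 of the genes' probes passed an adjusted p of 0.05 under any. With normexp correction of the median spot signal, the difference took the sign opposite to the reported one for the following probes. It was 0.0049 for Lpcat1, 0.081 for Lpcat2 probe 2, -0.28 for Lpcat3 probe 2 and -0.033 for Lpcat4. It was 0.054 for Lpgat1 probe 2, -0.0014 for Lclat1 probe 1, 0.13 for Lclat1 probe 2 and -0.071 for Mboat2 probe 2. With the percentile taken over probes detected on every array it was -0.0036 for Lpcat3 probe 2 and -0.029 for Mboat2 probe 2, and in the authors' values 0.012 for Lpcat2 probe 1 and 0.0041 for Lpgat1 probe 2. With 1 array left out, it ranged from -0.097 to 0.022 for Lpcat1, -0.029 to 0.027 for Lpcat2 probe 1, -0.069 to 0.085 for Lpcat3 probe 2, -0.010 to 0.21 for Lpcat4, -0.078 to 0.055 for Lpgat1 probe 2, -0.0090 to 0.061 for Lclat1 probe 1 and -0.078 to 0.16 for Mboat2 probe 2. Over all probes, the count past an adjusted p of 0.05 was 2 with quantile normalization, 17 with normexp, 3 with trend and robust eBayes, 3 with the methods' t-test and 0 with each array left out. The 2803 probes at an unadjusted p under 0.05 became 2018 to 4997 with 1 array left out, with 4997 without HZ replicate 2. Of the genes' probes, 0 had an unadjusted p under 0.05 with quantile normalization, the other percentile or no filter, 3 had one with normexp, 2 with trend and robust eBayes and 0 to 1 with 1 array left out. The number without overlap was 1 with quantile normalization, the other percentile or the authors' values, and 2 to 4 with 1 array left out (4 without HZ replicate 3 or KO replicate 2). Leaving out an array cannot lower this number, because groups that do not overlap stay apart with fewer arrays. For the replicate number, 3 probes had an unadjusted p under 0.05 with quantile normalization, 2 with normexp, the strict filter or the authors' values, and 0 without a filter. The median of the phospholipase list was -0.014 to 0.10 with 1 array left out, with 0.10 without HZ replicate 4. Under the replicate block, the difference of Lpcat1 stayed at -0.04, the SE was 0.12, and no call at an adjusted p of 0.05 changed. The cause of these shifts was not tested. Dim probes such as Lpcat4 limit what the signal over background can show.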
